A study of Mus musculus with 8 samples.

Results

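Genes for costimulatory and checkpoint ligands were compared in mouse eosinophils sorted from 2 tissues, bone marrow and small intestine. The group held 8 genes of the 38392 in the deposited expression table and was taken from the table by gene symbol: Cd80, Cd86, Icosl, Cd274, Pdcd1lg2, Cd40, Havcr2 and Lgals9. The study asked how eosinophils differ between the site where they form and a tissue where they reside. RNA sequencing was done on 4 libraries for each tissue from female mice, all wild-type C57/BL6, and the labels name no treatment. Bone marrow eosinophils were gated as CD11b+Ly6G-Ly6C-SiglecF+SSChi cells, and small intestinal eosinophils as CD11b+MHC-II-SiglecF+SSChi cells. Marrow was flushed from the bones and sorted without preselection. The intestine was stripped of epithelium at 37 degrees with EDTA, digested with collagenase and enriched with anti-CD11b beads before sorting, so tissue and handling cannot be told apart in any difference given here.

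T cells need a signal besides antigen to become fully active, and antigen-presenting cells give it through ligands of the B7 family. CD80 and CD86 activate T cells through CD28 and restrain them through CTLA-4, whereas PD-L1 (encoded by Cd274) and PD-L2 (Pdcd1lg2) restrain them through PD-1. Intestinal eosinophils live in the lamina propria among T cells and B cells.

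Before the comparison, the libraries were checked against their labels. They held 13404063 to 21289164 reads in genes for bone marrow and 11508002 to 14521229 for the small intestine. BM_5 had reads in 30886 genes, against 19713 to 24592 in the other bone marrow libraries and 26624 to 33346 in those of the small intestine. Levels between genes are given here as normalised counts per kb of exon, and all normalised counts are reads divided by the size factor the authors had used. The 7 listed genes of neutrophil precursors summed to 202936–263638 normalised counts per kb in the bone marrow libraries and to 273–305 in the small intestine, with Elane and Ngp the most abundant. The 7 eosinophil markers summed to 2074–3213 in bone marrow and to 5469–8112 in the small intestine, led by Prg2 in the first and by Ccr3 and Siglecf in the second. Of these 7, 4 were called higher in the small intestine: Ccr3 (231-fold in mean normalised counts), Il5ra (100-fold), Gata1 (15.4-fold) and Siglecf (5.30-fold). The 3 called lower were Epx (17.0-fold), Prg2 (12.5-fold) and Prg3 (7.24-fold). Genes of neutrophil precursors therefore far exceeded eosinophil genes in the libraries labelled bone marrow eosinophils, and each fold below is relative to those libraries. The 18 macrophage and dendritic cell genes summed to 367–451 in bone marrow and 4099–9014 in the small intestine, and the 6 epithelial genes to 26.4–45.4 and 831–4866, both highest in library SI_6. Of the macrophage and dendritic cell genes 13 were called higher, 1 lower (Clec9a) and 4 did not pass, led in the small intestine by Itgax and Cd74. Itgax alone held 2538 to 3459 normalised counts per kb of the small intestine sums. Among the 4, the log2 difference (small intestine minus bone marrow) was negative for Mrc1 (-0.62) and Cd163 (-0.79) and positive for Flt3 (0.78) and Cd209a (1.45). The epithelial genes were called higher in 6 of 6, led by Krt8 and Epcam. The 10 genes that respond to tissue dissociation were called higher in 10 of 10 and summed to 216–341 and 18557–25221, led by Dusp1 and Fos. The 8 fibroblast and endothelial genes were also called higher in 8 of 8, with sums of 61.4–75.9 and 1252–1570, with Pecam1 the most abundant. Lymphocyte and mast cell genes were also measured: the 7 B cell genes (led by Cd79b in bone marrow and Cd22 in the small intestine) summed to 152–248 and 148–237, the 7 T cell genes (Lck, Cd4) to 13.8–23.7 and 43.7–65.3, and the 8 mast cell and basophil genes (Kit, Mcpt8, Gata2) to 442–588 and 192–400. In B cell genes 1 was called higher and 2 lower, in T cell genes 3 and 0, and in mast cell and basophil genes 1 and 4. In sorted populations measured in bulk, fewer cells of a type and less RNA per cell cannot be told apart. The part of other cell types in the results below was not tested, also where marker sums or values without a library are given.

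Of the 8 genes, 6 were higher in the small intestine at a limma adjusted p under 0.05 and 0 were lower, beside 22.0% of all genes higher and 12.9% lower. The 6 were Cd274, Cd80, Cd86, Pdcd1lg2, Havcr2 and Icosl. Cd40 and Lgals9 did not pass the test. Where the mean over libraries was 10 reads or more (16215 genes), 34.6% were higher, and all of the 8 genes but Cd40 reach that mean. In 7 of the 8 every small intestine library lay above every bone marrow library, as it did for 20.3% of all genes. The median difference of the 8 genes was 4.70 on the deposited variance-stabilised log2 scale, against a median of 0.37 over all genes. Over genes with a mean of 10 reads or more the median was 0.12. The split of all calls depended on the scaling, with 8465 genes higher and 4937 lower as deposited, 4285 and 10216 after centring each library on its median over all genes, and 5954 and 7032 after quantile normalisation. Of the 38392 genes, 22177 had a mean under 10 reads, so most genes behind that median had low counts. With centring on the median over genes of at least 10 reads, 7372 were higher and 5020 lower. The 6 genes called higher were called higher under each of these scalings.

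**Figure D1:**
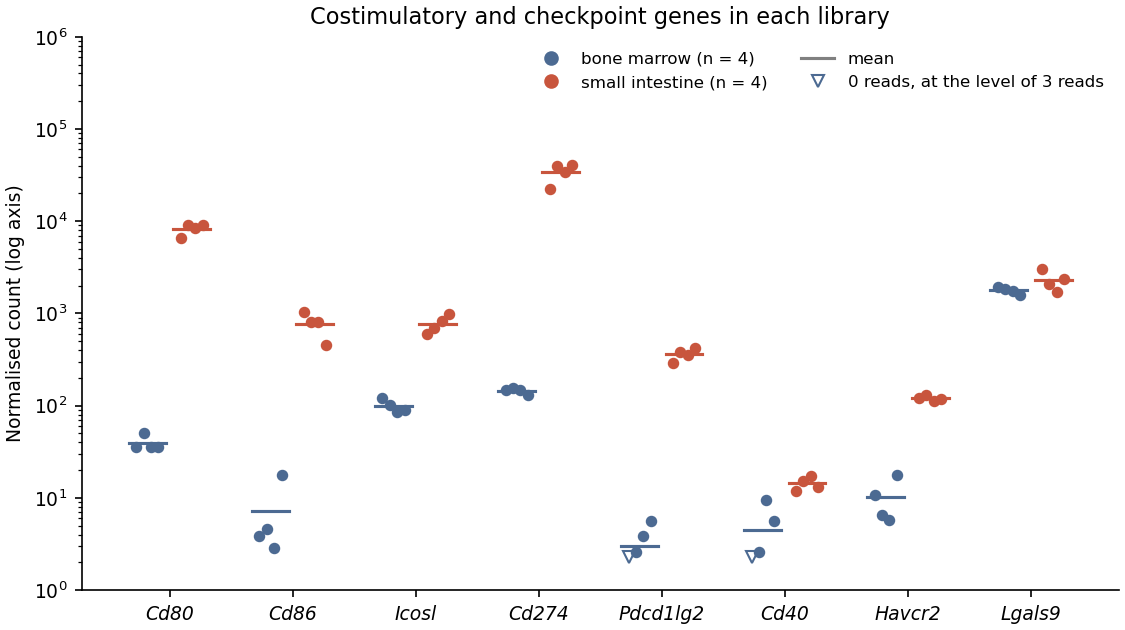
Normalised counts of the 8 genes in every library on a log axis, with points for libraries and lines for the mean of 4. Bone marrow libraries with 0 reads of Pdcd1lg2 or Cd40 are drawn as open triangles at the level of 3 reads. The means differ by 235-fold for Cd274, 212-fold for Cd80, 120-fold for Pdcd1lg2, 107-fold for Cd86, 11.9-fold for Havcr2 and 7.79-fold for Icosl, and the libraries overlap for Lgals9.

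Of the 8 genes, the ligands of PD-1 included the one with the largest estimate, Cd274. Cd274, which encodes PD-L1 (ENSMUSG00000016496, GRCm38 chr19:29367455-29388095, plus strand), had 147.1, 154.6, 149.3 and 131.1 normalised counts in bone marrow libraries BM_1, BM_3, BM_4 and BM_5. In small intestine libraries SI_6, SI_7, SI_10 and SI_11 it had 22129, 39331, 34193 and 41127. The bone marrow libraries were close to each other, and SI_6 was the lowest of the small intestine. The means were 145.5 ± 10.1 and 34195 ± 8564 (SD, n = 4 each), a 235-fold difference in mean normalised counts and a log2 difference of 7.80 ± 0.24 (SE, limma adjusted p = 3.07e-07). By level per kb, Cd274 moved from place 7260 to place 29 among protein-coding genes. It took 0.00109% of the reads counted in genes in bone marrow and 0.213% ± 0.0480 (SD, n = 4) in the small intestine.

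Pdcd1lg2 encodes PD-L2 (ENSMUSG00000016498, chr19:29410919-29471161, plus strand) and lies 22.8 kb from the end of Cd274 on the same strand. It had 0, 2.61, 3.83 and 5.58 normalised counts in the bone marrow libraries and 287.1, 381.4, 357.7 and 419.6 in the small intestine, in the same library order. The bone marrow values rest on 14 reads in all, with 0 in BM_1, so that the fold of 120 is imprecise. The log2 difference was 6.13 ± 0.46 (SE, limma adjusted p = 2.22e-05), and SI_6 was again the lowest of the small intestine libraries. A gene for an antisense RNA, A930007I19Rik, overlaps Pdcd1lg2 by 6412 bases, and the strand setting of the counting is not given in the sources used here, so reads from the shared stretch cannot be assigned. That gene held 459 reads in all libraries, against 1233 for Pdcd1lg2.

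Cd80 and Cd86, the ligands of CD28 and CTLA-4, were also far higher in the small intestine. Cd80 (ENSMUSG00000075122, chr16:38455561-38496335, plus strand) had 35.2, 50.2, 35.4 and 35.3 normalised counts in bone marrow and 6526, 9074, 8427 and 9078 in the small intestine. BM_3 stood above the other bone marrow libraries, and the gap between tissues exceeded the spread within each many times over. The difference was 212-fold in mean normalised counts and 7.60 ± 0.21 on the log2 scale (SE, limma adjusted p = 2.43e-07). Cd80 went from place 9675 to place 183 among protein-coding genes by level per kb. Its difference ranked 95 and that of Cd274 ranked 79 among the 38392 genes.

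Cd86 (ENSMUSG00000022901, chr16:36603869-36666081, minus strand) had 3.83, 4.56, 2.87 and 17.7 normalised counts in bone marrow and 1029, 802.9, 808.4 and 459.9 in the small intestine. BM_5 was the highest of bone marrow, and in the small intestine SI_6 was the highest and SI_11 the lowest, the reverse of their order for Cd274. The log2 difference was 6.34 ± 0.43 (SE, limma adjusted p = 1.41e-05) and the fold 107, with 34 bone marrow reads behind it. Cd80 and Cd86 lie 1789 kb apart on chromosome 16. In both tissues Cd80 exceeded Cd86, with 10.5 ± 2.01 against 1.98 ± 1.91 normalised counts per kb in bone marrow and 2235 ± 326 against 212 ± 64.2 in the small intestine (SD, n = 4 each).

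Icosl, the ligand of the T cell receptor ICOS (ENSMUSG00000000732, chr10:78069302-78083913, plus strand), was higher in the small intestine as well. It had 121.8, 101.1, 85.2 and 90.2 normalised counts in bone marrow and 596.0, 697.6, 830.3 and 980.2 in the small intestine. The libraries of the tissues did not overlap, and the difference was 7.79-fold, or 2.90 ± 0.23 on the log2 scale (SE, limma adjusted p = 2.72e-05). In bone marrow Icosl was more abundant per kb than Cd80 (21.6 ± 3.52 against 10.5 ± 2.01), and in the small intestine it was less abundant (168 ± 36.0 against 2235 ± 326, SD, n = 4 each).

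Cd40 is a receptor on antigen-presenting cells that is triggered by CD40 ligand on T cells, and it stayed low in both tissues. It had 0, 2.61, 9.57 and 5.58 normalised counts in bone marrow and 12.0, 15.3, 17.5 and 13.04 in the small intestine (ENSMUSG00000017652, chr2:165055627-165072948, plus strand). These values rest on 20 reads in bone marrow and 49 in the small intestine. The libraries did not overlap, but the log2 difference of 1.58 ± 0.54 (SE) had a limma adjusted p of 0.0516 and did not pass the test. It passed with voom on whole reads recovered from the deposited values (adjusted p = 0.0286), with an intensity-dependent prior (0.0466), without BM_1 (0.0459) and without BM_4 (0.0248), all by limma. By level per kb Cd40 took place 12918 in bone marrow and 12926 in the small intestine among protein-coding genes.

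Havcr2 and Lgals9 encode TIM-3, an inhibitory receptor that is also found on myeloid cells, and galectin 9, a sugar-binding protein known as one of its ligands. Havcr2 (ENSMUSG00000020399, chr11:46454935-46481255, plus strand) had 10.7, 6.52, 5.74 and 17.7 normalised counts in bone marrow and 120.1, 131.7, 113.8 and 117.3 in the small intestine. The libraries did not overlap, the fold was 11.9 and the log2 difference 3.27 ± 0.29 (SE, limma adjusted p = 5.22e-05). In bone marrow its values, like those of Cd86 and Pdcd1lg2, were highest in BM_5.

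Lgals9 (ENSMUSG00000001123, chr11:78962974-78984946, minus strand) was the most abundant of the 8 genes in bone marrow. It had 1938, 1861, 1767 and 1596 normalised counts in bone marrow and 3019, 2069, 1699 and 2372 in the small intestine. The ranges overlapped, with SI_10 below 3 of the bone marrow libraries and SI_6 above all others. The difference was 1.28-fold in mean normalised counts and 0.33 on the log2 scale, with a 95% interval of -0.18 to 0.84, and did not pass the test (limma adjusted p = 0.303). Centring each library on its median over all genes turned its sign (-0.57), whereas centring over genes of at least 10 reads left it at 0.26. Without SI_6 the difference was 0.18. By level per kb Lgals9 held place 409 in bone marrow and 432 in the small intestine.

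The order of the genes thus differed between the tissues. Per kb, Lgals9 led in bone marrow with 838 ± 68.8 normalised counts, ahead of Cd274 with 40.2 ± 2.79, Icosl and Cd80, none of which overlapped with the next in order. Below them Havcr2, Cd86, Pdcd1lg2 and Cd40 (3.74 to 1.30) each overlapped with the next. In the small intestine Cd274 led with 9441 ± 2364, followed by Cd80 and then Lgals9 with 1071 ± 261 (SD, n = 4 each). Cd86, Pdcd1lg2 and Icosl overlapped with their neighbours in the order at 212, 184 and 168, and Havcr2 (44.4) and Cd40 (4.24) came last. Of the summed level of the 8 genes, Lgals9 made up 91.2% ± 0.675 in bone marrow and 8.50% ± 3.89 in the small intestine. Cd274 made up 4.38% ± 0.194 and 69.9% ± 5.46, and Cd80 1.15% ± 0.197 and 16.8% ± 0.899 (SD, n = 4 each). These shares describe the levels already given and were not tested.

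**Figure D2:**
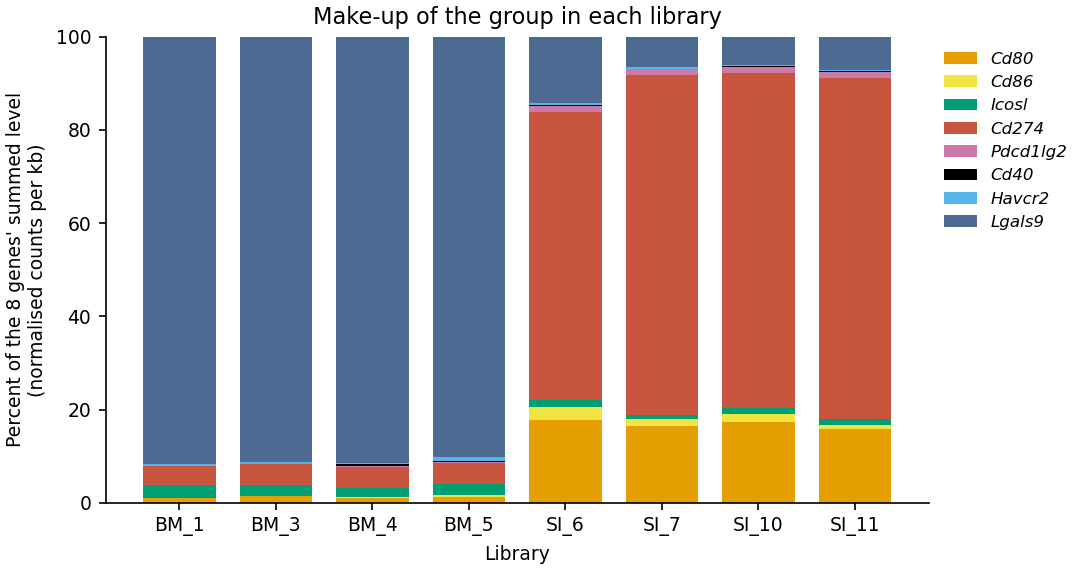
Share of each gene in the summed level of the 8 genes (normalised counts per kb, in percent) for each library. Lgals9 fills 90.2% to 91.8% of the bars of bone marrow, and Cd274 fills 61.8% to 73.2% of those of the small intestine, where library SI_6 has the largest Lgals9 share (14.3%).

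Ratios of related genes within a library do not depend on the size factors. The log2 ratio of Cd80 to Cd86 was 2.71 ± 1.16 in bone marrow and 3.46 ± 0.671 in the small intestine (SD, n = 4 each), and did not differ beyond the spread (difference 0.75, exact 2-sided permutation p = 0.343, adjusted over 3 ratios 0.514). The log2 ratio of Cd274 to Pdcd1lg2 was 5.97 ± 1.82 and 6.54 ± 0.185 (difference 0.57, exact permutation p = 0.571, adjusted 0.571). These p-values do not show that the ratios are alike. BM_1, with 0 Pdcd1lg2 reads, had the highest ratio (8.59), and without it the difference was 1.44 (exact permutation p adjusted over the ratios 0.0429). The log2 ratio of Lgals9 to Havcr2 fell from 7.54 ± 0.784 to 4.21 ± 0.348, with every small intestine library below every bone marrow library. Its difference of -3.33 reached the smallest p that 70 assignments of 4 against 4 allow (exact 2-sided permutation p = 0.0286), and 0.0857 after adjustment over the 3 ratios, which is not under 0.05. Without BM_1 the exact permutation p for Lgals9 to Havcr2 was again the smallest allowed (0.0286). Its adjusted p was then 0.0429, because Cd274 to Pdcd1lg2 reached the same smallest p, so the change reflects the adjustment and not this ratio.

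The small intestine libraries differed among themselves in several of these genes. SI_6 had the lowest Cd274, Cd80, Icosl and Pdcd1lg2, and the highest Cd86 and Lgals9. It also had the highest summed macrophage and dendritic cell genes (9014 normalised counts per kb, against 4099 to 7434 in the other libraries) and epithelial genes (4866, against 831 to 2048), and the lowest summed eosinophil genes (5469, against 6470 to 8112). SI_11 had the highest Cd274 and Icosl, the lowest Cd86, and the highest eosinophil sum. With 4 libraries no relation between these values was tested. Without SI_6, the log2 difference was 7.998 for Cd274 and 6.18 for Cd86, both still called.

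**Figure D3:**
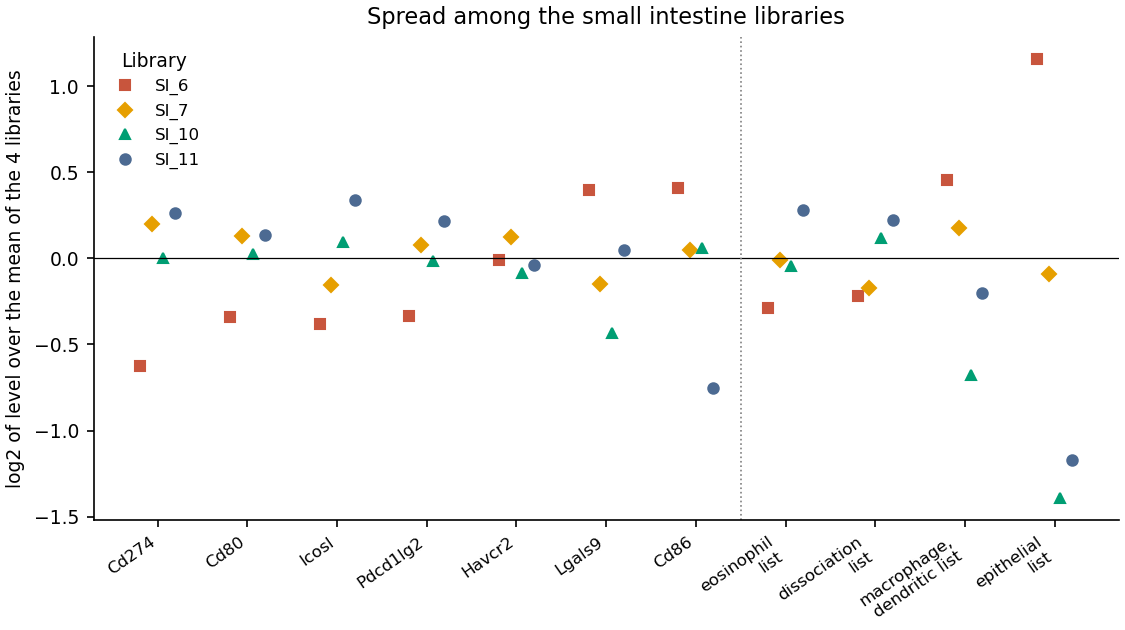
Level of 7 of the genes and of 4 marker lists in each small intestine library, as log2 of the level over the mean of the 4 libraries. The dotted line separates genes (normalised counts) from lists (summed normalised counts per kb). SI_6 (squares) is low for Cd274, Cd80, Icosl and Pdcd1lg2 and for the eosinophil list, and high for Lgals9, Cd86 and the macrophage, dendritic cell and epithelial lists.

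Promoter sequences are shown for Cd274 and Cd80, which had the largest differences, and for Lgals9, which did not pass the test. RefSeq (GRCm38.p6) gave promoters for 6 of the 8 genes, and the 250 bases before each start were searched on both strands for 5 motifs. Each sequence runs 5′ to 3′ along its gene and ends at the base before the RefSeq start, and capitals mark the match. The RefSeq starts of Cd80 and Lgals9 lie inside the genes as the Ensembl annotation draws them.

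Cd274 (chr19:29367188-29367437, plus strand): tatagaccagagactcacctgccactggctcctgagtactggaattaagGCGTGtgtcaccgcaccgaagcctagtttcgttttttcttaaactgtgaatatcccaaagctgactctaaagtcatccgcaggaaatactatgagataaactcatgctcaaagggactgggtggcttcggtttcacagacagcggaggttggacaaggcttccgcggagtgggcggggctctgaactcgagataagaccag

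Cd80 (chr16:38458683-38458932, plus strand): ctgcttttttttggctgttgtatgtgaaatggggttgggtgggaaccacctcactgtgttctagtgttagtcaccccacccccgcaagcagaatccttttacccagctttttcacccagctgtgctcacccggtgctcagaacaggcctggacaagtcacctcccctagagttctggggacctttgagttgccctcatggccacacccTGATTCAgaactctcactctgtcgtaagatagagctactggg

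Lgals9 (chr11:78984925-78985174, minus strand): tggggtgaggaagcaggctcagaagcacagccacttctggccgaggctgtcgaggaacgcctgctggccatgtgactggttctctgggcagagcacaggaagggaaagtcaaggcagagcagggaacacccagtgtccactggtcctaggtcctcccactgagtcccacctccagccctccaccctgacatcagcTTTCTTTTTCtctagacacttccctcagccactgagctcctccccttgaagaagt

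The AP-1 motif TGANTCA stood 42 bases before the start of Cd80 and 200 before that of Havcr2, and is held by 6.75% of 32851 promoter windows of the same length. The AHR core GCGTG stood in the window of Cd274, where the capitals show it, and is held by 28.2% of windows. An interferon-stimulated motif (GAAA, 2 bases of any kind, GAAA) stood on the opposite strand 55 bases before the start of Lgals9 and is held by 2.98%. The gamma-activated motif TTCNNNGAA (7.02% of windows) and the REL motif (GGG, 2 bases of any kind, TTTCC, 1.41% of windows) were in none of the 6. No 2 matches overlapped, and a match describes the letters only.

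Genes within 100 kb were added after the values had been seen. Plgrkt, which encodes a plasminogen receptor, starts 65 bases from Cd274 on the opposite strand, and its log2 difference was 2.70 ± 0.21 (SE, limma adjusted p = 2.41e-05). Jak2, a kinase of the interferon gamma receptor, lies 54.4 kb from Cd274 and differed by 2.04 ± 0.23 (adjusted p = 0.000187). Of 5 protein-coding genes within 100 kb of Cd274, Pdcd1lg2 included, 4 were called higher and 0 lower, where 22.0% of all genes, and 34.6% of those with 10 reads or more, were called higher. Around Cd80 4 of 7 were called higher and 2 lower, and around Lgals9, whose own difference did not pass, 2 of 2 were called higher.

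Of 14 counter-receptors for these and related ligands, which are mostly T cell genes, 6 were called higher, 2 lower and 6 did not pass, and the median log2 difference was 1.09. For this and each list that follows, the shares over all genes to read the counts against are 22.0% higher and 12.9% lower. Among genes with a mean of 10 reads or more, 34.6% were higher, the share to use where a list holds mostly such genes. With limma run on those 16215 genes alone, 6362 were called higher and 5462 lower. The largest called rise was that of Rgmb, a binding partner of PD-L2 (3.54 ± 0.74), and the smallest that of Tnfrsf4, which encodes OX40 (1.04 ± 0.22). Rgmb had 102.6, 38.8, 7.66 and 14.2 normalised counts in SI_6, SI_7, SI_10 and SI_11, where the epithelial genes summed to 4866, 2048, 831 and 966 per kb, and the part of epithelial cells in these values was not tested. Without SI_6 the mean of Rgmb was 20.2 in place of 40.8, with a log2 difference of 2.95 that was still called, and without BM_5 no bone marrow library held a read of it. The call of Tnfrsf4 was lost with centring on the median over all genes and with quantile normalisation, that of Tnfrsf18 with the first and that of Tigit with the second. With centring over genes of at least 10 reads each call of this list was kept. Btla fell by 1.73 and Cd27 by 1.17 on the log2 scale. Ctla4 had means of 3.91 (1.49 without BM_5) and 44.1 normalised counts, and Pdcd1, the gene of PD-1, had 0.163 and 1.44 and did not pass (adjusted p = 0.160, all limma). Per kb the most abundant were Cd27 in bone marrow (77.4) and Tnfrsf18, which encodes GITR, in the small intestine (190), while the 14 genes summed to 141–199 and 255–394. Beside them, the summed T cell markers were at 13.8–23.7 and 43.7–65.3 normalised counts per kb, and their part in these values was not tested.

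Other ligands of T cell costimulation and inhibition were called in both directions. Of 16 such genes 4 were called higher, 3 lower and 9 did not pass, with a median log2 difference of 0.66. Over all genes 22.0% were higher and 12.9% lower. Most of the 16 had a mean of 10 reads or more, and 34.6% of all such genes were higher. Cd200, a surface ligand that restrains myeloid cells, had the largest rise (4.05 ± 0.72, from 4.57 to 68.99 mean normalised counts, with a bone marrow mean of 0.511 without BM_5), and Tnfrsf14, the ligand of BTLA, the smallest called rise (0.73 ± 0.19). The sign for Tnfrsf14 turned when libraries were centred on their median over all genes, and its call was lost with centring over genes of at least 10 reads. Cd47, which protects cells from phagocytosis, was the most abundant of the list in both tissues and fell by 1.84 on the log2 scale (SE 0.19). Hmgb1, a further ligand of TIM-3, fell by 1.12 (SE 0.17) and Ceacam1 by 1.65 (SE 0.38). Vsir, which encodes VISTA, had 1942 and 2479 mean normalised counts and did not pass (limma adjusted p = 0.187). Every small intestine library lay above every bone marrow library for Vsir, and it was called higher with voom. Summed over the list, levels per kb were 3715–4044 in bone marrow and 1830–2285 in the small intestine.

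**Figure D4:**
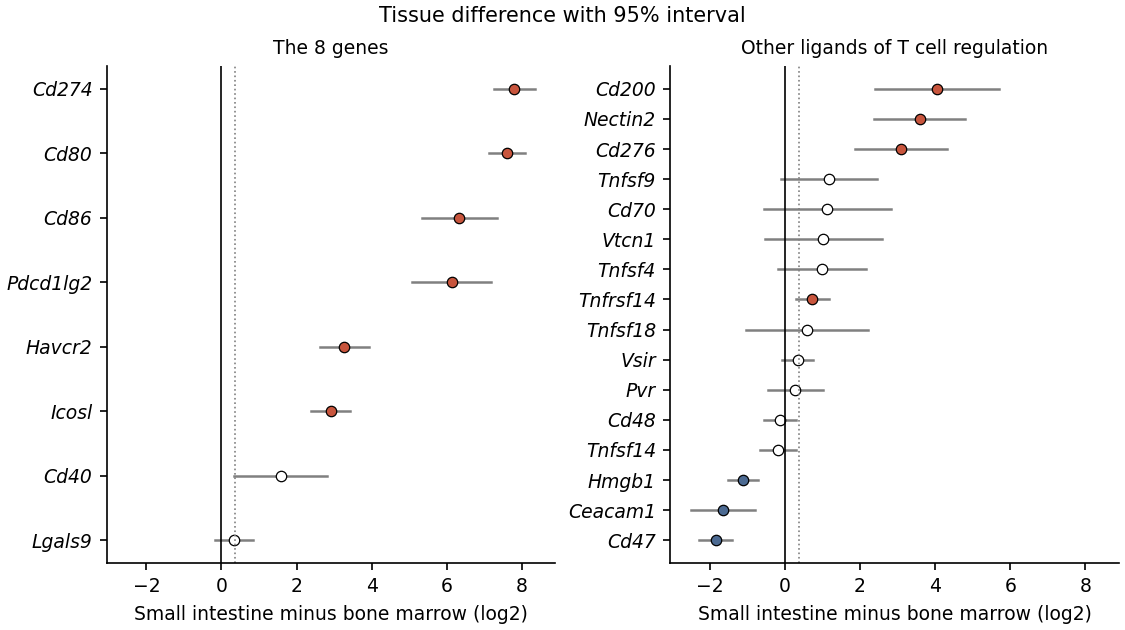
Log2 difference, small intestine minus bone marrow, with its 95% interval for the 8 genes (left) and 16 other ligands (right). Red points were called higher, blue points lower and open points did not pass, and the dotted line is the median of all genes (0.37). The 4 leading genes on the left lie between 6.13 and 7.80, and the largest value on the right is 4.05.

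Signalling genes downstream of CD40 were higher although Cd40 itself was low. Of 15 genes 13 were called higher, 0 lower and 2 did not pass, with a median log2 difference of 3.21. Many of these genes also serve other receptors that activate NF-kB. Tnfaip3, a feedback inhibitor of NF-kB, rose the most (7.49 ± 0.25, from 37.3 to 6800 mean normalised counts per kb) and was the most abundant in the small intestine, whereas Rel was the most abundant in bone marrow (204 per kb). Rela, a subunit of NF-kB, had the smallest called rise (0.67 ± 0.19) and its sign turned with centring on the median over all genes. With centring over genes of at least 10 reads the call of Rela was lost. Traf2 (-0.14) and Traf6 (0.17), adaptors of CD40, did not pass. The 10 genes of the dissociation response moved in the same direction, and the part of handling in these values cannot be told apart from that of tissue.

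Of 10 genes of the interferon gamma pathway and of PD-L1 protein stability, 6 were called higher, 0 lower and 4 did not pass, with a median log2 difference of 1.30. Irf1, a transcription factor that drives Cd274 in other cells, rose the most (2.44 ± 0.20), followed by Jak2, and Stat3 had the smallest called rise (1.24 ± 0.19). Ifngr1, the most abundant of the list per kb in both tissues (1394 and 1618), did not pass. Cmtm6, which keeps PD-L1 on the cell surface, differed by 0.53 ± 0.19 (limma adjusted p = 0.0569), and Spop, which marks PD-L1 for degradation, differed by -0.26 ± 0.18 and did not pass. The difference of Cmtm6 was called higher with voom, and also without BM_5 (0.51), SI_6 (0.59), SI_7 (0.57) or SI_10 (0.50). Cmtm4, a relative of Cmtm6, was called higher by 1.70 ± 0.53, but the call was lost without BM_1, BM_3, BM_4, BM_5, SI_7 or SI_10 (limma adjusted p = 0.0569 to 0.105). Cmtm4 had 502.1 normalised counts in SI_6 and 94.8 to 188.6 in the other small intestine libraries, and SI_6 also had the highest epithelial sum. Without SI_6 its mean was 130 in place of 223 and its log2 difference 1.203. With centring on the median over all genes, 4 of the 6 calls were lost (Ifngr2, Jak1, Stat3 and Cmtm4), while Irf1 and Jak2 were called in each scaling. Spop was called lower with that centring, with voom and with quantile normalisation, but not with centring over genes of at least 10 reads. Irf9 was called higher with quantile normalisation. With centring over genes of at least 10 reads all 6 calls were kept.

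**Figure D5:**
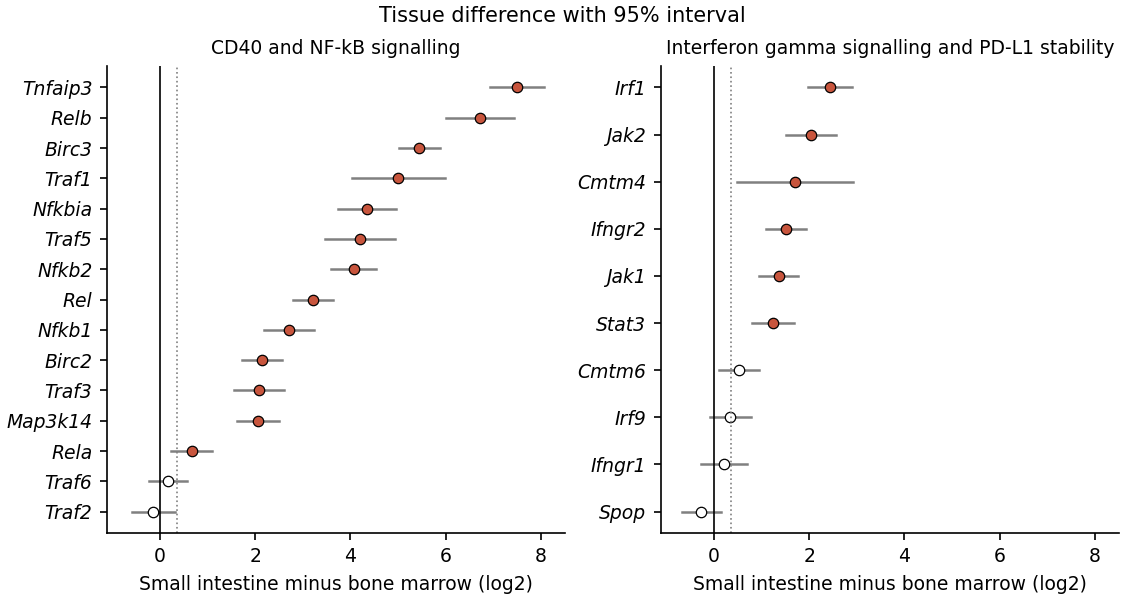
Log2 difference, small intestine minus bone marrow, with its 95% interval for 15 genes of CD40 and NF-kB signalling (left) and 10 genes of the interferon gamma pathway and PD-L1 stability (right). Red points were called higher and open points did not pass, and the dotted line is the median of all genes (0.37). Tnfaip3 and Relb lead the left panel at 7.49 and 6.72, and no gene of the right panel exceeds 2.44.

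Among relatives of Lgals9 and Havcr2, several galectins changed. Of 7 other galectins 5 were called higher, 1 lower and 1 did not pass, with a median log2 difference of 3.23. Lgals2 rose the most, from 1.69 to 1437 mean normalised counts (7.89 ± 0.59), and Lgals1 fell by 2.41 (SE 0.28). Lgals8 had the smallest called rise (0.55 ± 0.18), and its sign turned with centring on the median over all genes. The call of Lgals8 was lost with centring over genes of at least 10 reads and without BM_1, BM_3, BM_4 or SI_11. Lgals8 was the most abundant per kb in bone marrow (252) and Lgals2 in the small intestine (2428). Their summed level was 8134 normalised counts per kb in SI_6 and 1701 to 3412 in the other small intestine libraries, so it was highest in the library with the highest epithelial sum. Lgals2 and Lgals4 are known as genes of the intestinal epithelium, and without SI_6 their small intestine means were 788 in place of 1437 and 886 in place of 1618, with both still called. Of 5 measured genes of the TIM family and TIM-3 partners, 2 were called higher, 0 lower and 3 did not pass. Bag6, the most abundant (218 and 245 per kb), was among the 3. Fyn, a kinase that binds the TIM-3 tail, rose by 2.69 ± 0.21 and Timd4 by 1.98 ± 0.25. The call of Timd4 was lost with centring on the median over all genes but not with centring over genes of at least 10 reads.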

How the data were processed

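RNA from sorted eosinophils was amplified with the NuGEN Ovation RNA-Seq System v2 and sequenced with single-ended reads. The authors aligned reads to GRCm38 (Ensembl annotation) with nf-core/rnaseq, counted genes and deposited variance-stabilised expression from DESeq2 (R 4.0.3), a log2-like scale. Columns name a tissue but no single sample, so libraries carry the column names. From these log2 values the closed form of the transformation gave whole reads for 100% of values (tolerance 0.05 reads), with size factors of 0.721 to 1.53. No value column was left out for lack of a group. Tests across all 38392 genes used limma 3.58.1 (R 4.3.3) on the deposited values, 4 libraries against 4, 2-sided, with Benjamini-Hochberg adjustment, and were tested on simulated data. Differences are small intestine minus bone marrow. Ratios used log2 of reads plus 0.5 and exact permutation. Precision is limited by counts below about 10 reads, and counting error is part of the spread. The 8 genes are always named, and each gene list is given by its counts, its largest and smallest called difference in each direction and its most abundant genes. Members and lists were chosen with earlier results of these data known. Bat3, an older name of Bag6, is not a symbol in the table. A further listed gene is not reported here.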

Additional observations from a re-analysis of the deposited data

Results flagged for a closer look

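Within a tissue, 60 sets of 4 libraries were examined for a library set apart from the others, by its gap to the nearest library over the whole range (Dixon's test), and 2 were found, where chance gives about 1 in 20. For the deposited value of Cd80 in bone marrow, BM_3 stood above the others (0.987 of the range), with 50.2 normalised counts against 35.2 to 35.4. For the log2 ratio of Cd80 to Cd86 in bone marrow, BM_5 stood below the others (0.860 of the range), at 0.98 against 3.08 to 3.42, where 19 of the 34 bone marrow reads of Cd86 lay in BM_5.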

How the results depend on the processing

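The differences of Cd80, Cd86, Cd274, Pdcd1lg2, Icosl and Havcr2 kept their direction and their call in each of 16 alternatives with limma (voom on recovered reads, other priors, a filter on low counts, 3 other scalings, log2 of normalised count plus 1, and each library left out). Cd40 passed with voom (2.43, adjusted p = 0.0286), with an intensity-dependent prior (1.58, 0.0466) and without BM_1 or BM_4, its values ranging from 1.03 to 1.95 as libraries were left out and its limma adjusted p over all alternatives from 0.0248 to 0.334. It has no value under the filter of 10 reads. Lgals9 turned to -0.57 with centring on the median over all genes (limma adjusted p = 0.336) and was 0.26 with centring over genes of at least 10 reads (limma adjusted p = 0.380). The counts of members called kept within 6 to 7 higher and 0 lower as libraries were left out, and pathway genes within 33 to 39 higher and 6 lower, while pathway genes numbered 26 higher and 7 lower with centring over all genes and 35 and 8 after quantile normalisation. The log2 ratio differences ranged from 0.17 to 1.01 for Cd80 to Cd86, from 0.058 to 1.44 for Cd274 to Pdcd1lg2 and from -3.69 to -3.12 for Lgals9 to Havcr2 when libraries were left out, and the call changed without BM_1 for the last 2. For Lgals9 to Havcr2 only the adjustment changed, since its unadjusted p stayed at the smallest allowed. The median difference over all genes was 0.37 as deposited, 0.89 with voom, -0.53 with centring over all genes, 0.31 with centring over genes of at least 10 reads and -0.03 after quantile normalisation, and counts of all genes called moved from 8465 higher and 4937 lower to 4285 and 10216 under centring over all genes. The cause was not tested. No paired analysis was possible because no replicate number occurs in both tissues. Depth limits Cd40, Cd86, Pdcd1lg2 and Havcr2 in bone marrow, where they had 20, 34, 14 and 49 reads in all.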
